A study of Mus musculus with 4 samples.

Results

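Spinal cord RNA from transgenic mice was set against spinal cord RNA from wild-type mice, with 1 Agilent array on each side. These are 2 of the 4 samples of the series, and the other 2 hold brainstem/cerebellum of the same genotypes. Both groups of mice were 24 weeks old and had a mixed background of C57BL/6, 129 and C3H, and the transgenic mice are described by the labels as MSA Tg mice, a model of multiple system atrophy. The labels name neither the transgene nor the promoter that drives it, and the letters in the sample titles are not explained there. They do not say whether an array holds RNA from 1 animal or from a pool, and the source field of both samples says brain where the tissue field says spinal cord. Of 27060 genes with a named probe, 17193 were well above background on both spinal cord arrays and could be compared, each through the probe that was brightest over the 4 arrays.

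Multiple system atrophy is an adult-onset neurodegenerative disease in which protein aggregates collect in oligodendrocytes, the cells that wrap axons in myelin, and in which neurons of the striatum, brainstem, cerebellum and spinal cord are lost. The spinal cord holds cholinergic motor neurons, glycinergic and GABAergic inhibitory neurons, long myelinated tracts, astrocytes that clear glutamate and potassium, and microglia, the resident macrophages. In injured or diseased cord, microglia are known to shift from a surveying state to a phagocytic one marked by Trem2, Apoe and Clec7a, and astrocytes to a reactive one marked by Gfap, Lcn2 and Serpina3n.

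Values are given as relative signals, the processed signal of a probe as a multiple of the 75th percentile of its array, with the transgenic value first and the wild-type value after "against". Differences are on the log2 scale, transgenic minus wild type, so that 1 is 2-fold. There were no replicates, so no p-value exists for any gene, and the only error that can be given is that of 10 repeated spots per probe: a difference between 2 spots of 1 probe had an SD of 0.086 where the relative signal was over 0.5, and of 0.20 over the 6 measurements in the dimmer range next to it. That error leaves out animals, extractions and hybridisations. The slide of the wild-type cord array holds none of the other 3 arrays, which share a slide, so slide and genotype cannot be told apart. In bulk tissue, fewer cells of a type and less RNA per cell cannot be told apart either.

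The 75th percentile of the processed signal came to 410 for transgenic cord and 678 for wild-type cord, and 60.9% and 64.0% of probes were well above background. At this scaling 1455 genes (8.46%) reached 2-fold higher in transgenic cord and 1103 (6.42%) reached 2-fold lower, around a median difference of -0.05 over all genes. The central 95% of genes ran from -1.41 to 2.06. The upper side reached farther: 453 genes passed 4-fold as higher and 120 as lower, 147 and 32 passed 8-fold, and 54 and 12 passed 16-fold. A further 367 genes that only the transgenic array measured were higher by a bound of at least 2-fold, and 191 that only the wild-type array measured were lower by one. The 7 spike-in control probes, RNAs of known amount added to each sample, differed by a median of 0.42 (-0.19 to 0.66). Scaled on them, every difference lies lower by that amount, the median over all genes is -0.46, and 853 genes are higher and 3068 lower, so that 21.8% of the genes past 2-fold are higher in place of 56.9%. Changes below are therefore relative to the bulk of genes, and on the spike-in scale differences between 1 and 1.42 do not pass 2-fold, while those from -0.58 to -1 do.

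**Figure D1:**
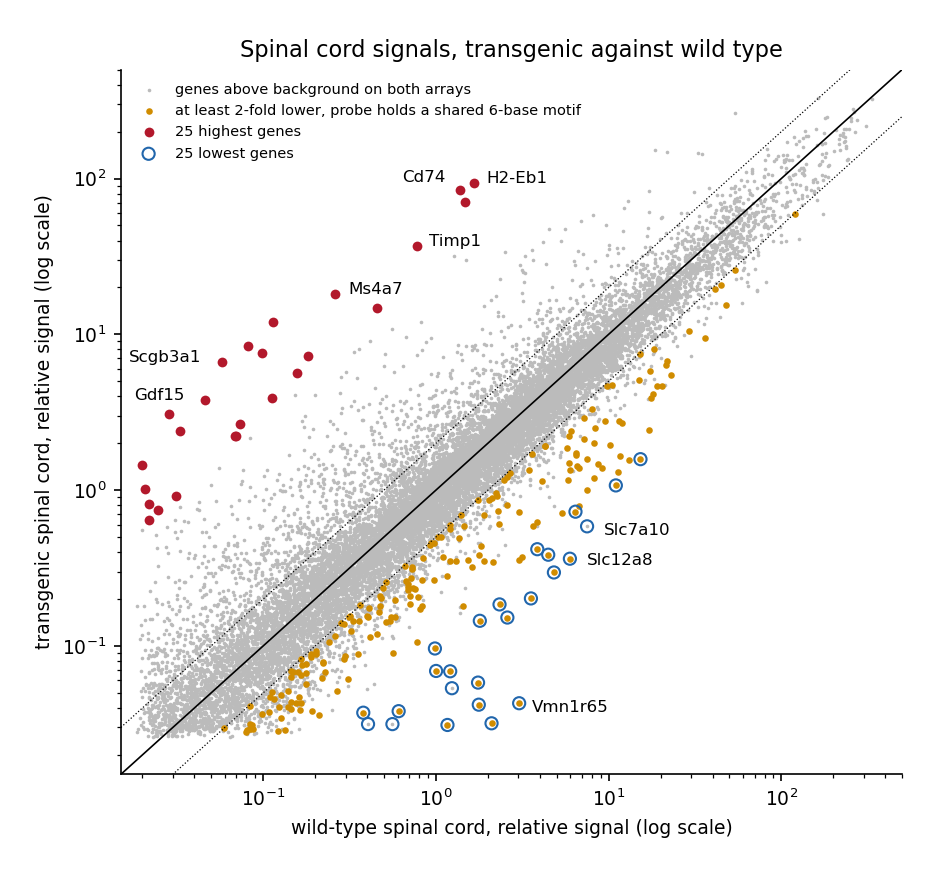
Relative signal of 17193 genes on the wild-type (x axis) and transgenic (y axis) spinal cord arrays, both on log scales; each point is 1 gene, the solid line marks equal signals and the dotted lines 2-fold. Red points are the 25 highest genes and blue rings the 25 lowest; gold points are lower genes whose probe holds a shared 6-base run, which mark 21 of the 25 lowest and none of the 25 highest.

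Both arrays carried the marks of spinal cord. All 14 Hox genes listed for cord levels were above background on both, with relative signals of 2.18 against 4.18 for Hoxc8, 2.23 against 2.39 for Hoxc9, 0.658 against 0.657 for Hoxc10 and 0.132 against 0.128 for Hoxd10, and these 4 were not well above background on either brainstem/cerebellum array. Markers of the cerebellum and choroid plexus were low: Gabra6 of granule neurons and Ttr of choroid plexus were not well above background on either cord array, and Pcp2 of Purkinje cells gave 0.123 against 0.283, beside brainstem/cerebellum values of 77.7 and 73.1. Of the 14 Hox genes 2 were at least 2-fold lower in transgenic cord, Hoxa7 at 4.93 against 13.8 (-1.48) and Hoxb5 at 1.89 against 4.33 (-1.20), with a list median of -0.32.

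The transgene could not be checked, since the labels do not name it. Sncb and Sncg, which encode beta- and gamma-synuclein, gave 5.10 against 9.88 (-0.95) and 11.04 against 15.5 (-0.49). Among genes linked to multiple system atrophy, Tppp (p25alpha), an oligodendrocyte microtubule protein, gave 5.57 against 6.21 (-0.16) and Coq2, of coenzyme Q synthesis, 6.29 against 7.93 (-0.33).

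The lowest genes of the comparison shared short runs of letters in their probes. These are shown because they mark which lower values rest on such probes. The runs were chosen after seeing these data, so their counts among the lowest genes and probes are a description and no independent support. Agilent probes are 60 bases long and are read here as the file gives them. Capitals mark the run GTCTTCC, with the next base where that is also a C. In the last line of the first group they mark CTCTCT with its overlapping repeats. Of each probe 30 bases are printed, and the coordinates are those of the whole probe on mm9.

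Vmn1r65: tcctgtattcgaGTCTTCCtgataagtaag
Sprr2g: gtcccgagccatGTCTTCCttctccatgcc
Trim63: aattaaaagtggGTCTTCCCacttcaaatg
Slc12a8: gaaaacccaagactgGTCTTCCCaccacag
Slc2a8: atttccctcatgGTCTTCCagcagctgtca
Zfp280c: GTCTTCCCaaggtgtttgccttgaattact
Tas2r113: ttggcttCTCTCTCTctgattttttggctc

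Vmn1r65, a vomeronasal receptor (probe at chr7:5959355-5959414), had the lowest difference of all, -6.14, from relative signals of 0.0429 against 3.03, while the brainstem/cerebellum arrays gave 0.138 against 0.0893. Sprr2g, a gene of cornified epithelium (probe at chr3:92178685-92178744), gave 0.0420 against 1.77 (-5.40) in cord and 0.173 against 0.124 in brainstem/cerebellum. Slc12a8 (probe at chr16:33663232-33663291) gave 0.363 against 5.97 (-4.04), Slc2a8, a glucose transporter (probe at chr2:32831712-32831771), 0.185 against 2.33 (-3.66), and Tas2r113, a bitter taste receptor (probe at chr6:132843899-132843958), 0.0373 against 0.380 (-3.35). For all of these the wild-type cord array stood alone above the other 3. Except for Tas2r113, the transgenic cord array also lay below both brainstem/cerebellum arrays. Those gave 1.22 against 0.879 for Slc12a8, 0.550 against 0.395 for Slc2a8 and 0.0339 against 0.0484 for Tas2r113. Trim63, a muscle ubiquitin ligase, gave -4.14 through the probe shown (at chr4:133873219-133873278) and 1.01 through its other measured probe, and Zfp280c gave -3.21 through the probe shown (at chrX:45939494-45939553) and 0.09 to 0.34 through 2 others. Stretches of probes of these genes that lacked the run are shown for comparison.

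Trim63, other probe: acacttttctacgttggtgcgaaatgaaat
Zfp280c, other probe: caaaaatgcacttgtttcttgcccacatat

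They lie at chr4:133885025-133885084 and chrX:45894954-45895013. Over all 32160 probes above background on both cord arrays the median difference was -0.03 and 6.84% were at least 2-fold lower. The 220 probes holding GTCTTCC had a median of -1.13, with 52.7% at least 2-fold lower and 1.82% higher, whereas the 198 probes holding its reverse complement had a median of 0.04 with 4.55% lower. On the brainstem/cerebellum arrays the same letters gave a median of 0.11 and 0% lower. Along the probe, the medians were -1.14, -1.52 and -0.54 where the first base of the run lay at 1 to 18, 19 to 36 and 37 to 54.

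Shorter runs, also chosen after seeing the data, gave smaller shifts on the same strand. TCTTCC (885 probes) had a median of -0.25 with 22.6% lower, CTTCCC (733 probes) -0.32 with 26.3%, and CTCTCT (766 probes) -0.24 with 16.1%. TCTTCC and CTTCCC overlap, and GTCTTCCC holds both. Another run, CCTCCC (635 probes), had a median of -0.43 with 19.4% lower, beside -0.01 with 6.75% for its reverse complement. CCTCCC is not among the 3 runs counted here and below, so a probe without those 3 can still hold it. Any of the 3 was present in 2067 probes (6.43%), of which 18.7% were 2-fold lower, against 6.03% of the 30093 probes without one. Of the 60 probes at least 8-fold lower, 47 held one. In terms of genes, a probe with one of the 3 runs stood for 6.59% of all genes, 19.1% of the 1103 genes at least 2-fold lower, 57.5% of the 120 at least 4-fold lower and 26 of the 32 at least 8-fold lower, but for 5 of the 147 at least 8-fold higher. In 86 genes with probes of both kinds the median was -0.69 through the probe with GTCTTCC and -0.08 through those with none of the runs; the former was lower by over 1 in 34 genes and higher by over 1 in 1. Among 322 probes at least 4-fold above each other array on the wild-type cord array 40.1% held one of the runs, against 4.43% of 677 such probes on the transgenic cord array. With all such probes left out, 1417 genes were higher and 918 lower. What moves with these letters between the cord arrays was not tested, and a lower gene whose probe holds one is named as such below.

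**Figure D2:**
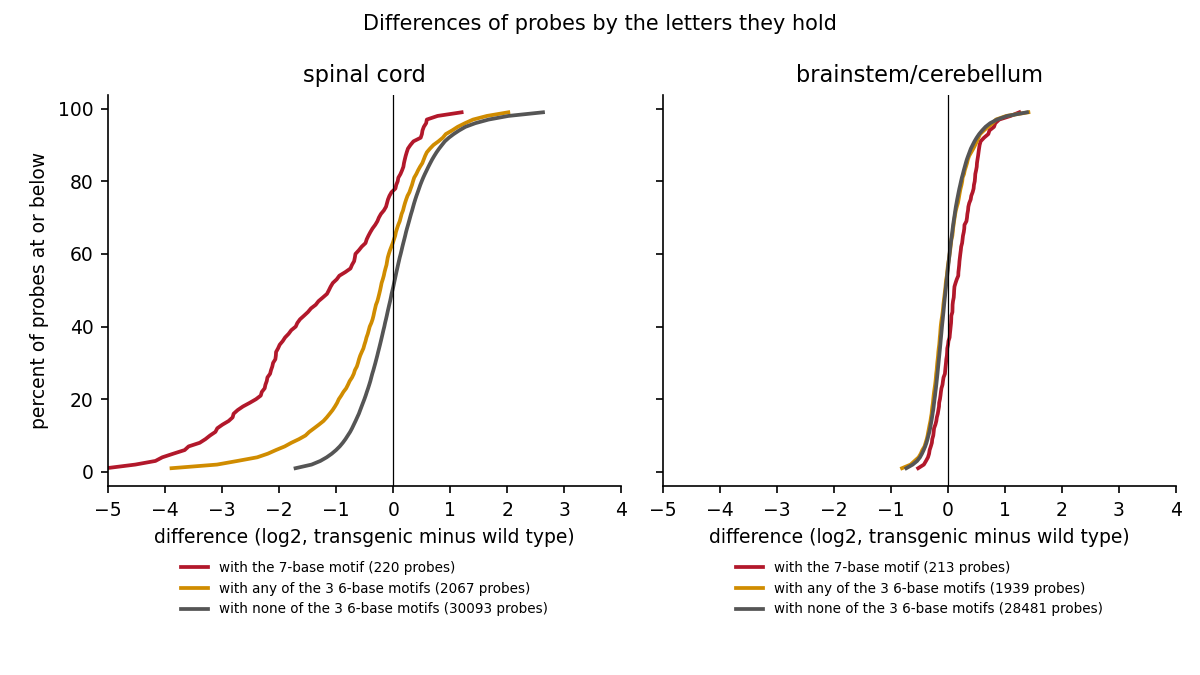
Percent of probes (y axis) at or below each log2 difference (x axis) in spinal cord (left) and brainstem/cerebellum (right), for probes with the 7-base run (red), with any of the 3 shorter runs (gold) and with none of these (grey). The red line lies to the left of the grey in spinal cord, with medians of -1.13 and -0.01, and not in brainstem/cerebellum.

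Of the 25 lowest genes, Vgll1, Fam227b, Uts2b and Slc7a10 were the 4 without such a run. Slc7a10 encodes Asc-1, the transporter of D-serine, glycine and small neutral amino acids of astrocytes and neurons. It gave 0.586 against 7.50 (-3.68, 12.8-fold lower) in cord and 3.14 against 5.23 (-0.74) in brainstem/cerebellum, so the transgenic cord array was the lowest of the 4. Vgll1, a TEAD cofactor, gave 0.0535 against 1.24 in cord and the opposite order, 0.179 against 0.0583, in brainstem/cerebellum. Uts2b, a urotensin-related peptide gene, gave 0.0315 against 0.404 (-3.68), and Fam227b 0.0315 against 0.560 (-4.15). Olfactory and vomeronasal receptors, which the nose expresses, gave low values too. Of 1367 with a probe 64 were above background on both cord arrays. Among these 64, 18 (28.1%) were at least 2-fold lower and 1 higher, beside 6.42% and 8.46% of all genes. Vmn1r65 and Olfr1466, among the 25 lowest, have probes with one of the runs. How many of the 18 do was not counted.

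The 25 highest genes held none of the runs. Scgb3a1, a small secretoglobin, had the largest difference, with 6.64 against 0.0579 (6.84). Rnase2a, an eosinophil-type ribonuclease, gave 3.06 against 0.0285 (6.75), and its relative Ear10 1.02 against 0.0207 (5.63). Retnla, a secreted product of alternatively activated macrophages, gave 7.60 against 0.0978 (6.28). Saa3, an acute phase protein, gave 2.38 against 0.0329 (6.18), and Htr2b, a serotonin receptor, 1.45 against 0.0199 (6.18). Ms4a7, a macrophage membrane protein, gave 18.2 against 0.262 (6.12), and Siglec1, the sialic acid receptor CD169 of macrophages, 0.743 against 0.0245 (4.92; 2.02 through another probe). The predicted gene Gm10639, Slc28a2, a purine nucleoside transporter, and Col20a1, a collagen, also belonged to the 25, at 0.815 against 0.0217 (5.23), 0.639 against 0.0220 (4.86) and 2.22 against 0.0693 (5.001). On the wild-type cord array 15 of the 25 genes lay under a relative signal of 0.1, so their folds rest on dim wild-type values.

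Genes above background on the transgenic array alone gave bounds. Each was set against the lowest wild-type signal well above background, or the probe's own signal where that was higher. The background limit differs between probes: on wild-type cord Htr2b passed it at 0.0199 and Apoc4 did not at 0.0203. Folds given as at least a value, here and below, are therefore not strict limits. Arg1, arginase of alternatively activated macrophages, was at least 243-fold higher, at 4.49 with the wild-type probe not well above background, and its brainstem/cerebellum values were 1.44 against 0.0349. Apoc4, an apolipoprotein that lies beside Apoe and Apoc2, was at least 78.9-fold higher. Clca3a2, a chloride channel regulator, Ear12, an eosinophil-type ribonuclease, and Atp6v0d2, a proton pump subunit of osteoclasts and foamy macrophages, were at least 78.9, 78.8 and 61.1-fold higher. Stra6l, a retinol binding protein receptor, and F10, coagulation factor X, were at least 46.4 and 37.2-fold higher. Tgm1, a transglutaminase listed with reactive astrocytes, and Pbk, a mitotic kinase, followed at 33.8 and 24.9-fold, and the predicted gene Gm36841 at 32.6-fold. Of the 10 lowest bounds 8 rested on probes with one of the runs above.

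Antigen presentation by MHC class II gave the highest list median, 3.86: all 9 members above background on both arrays were at least 2-fold higher, beside 8.46% of all genes. The chains that bind peptide were far apart on the 2 arrays, with H2-Aa (probe at chr17:34421285-34421344) at 11.97 against 0.114 (6.71), H2-Ab1 at 70.9 against 1.47 (5.59) and H2-Eb1 at 94.0 against 1.66 (5.82). Cd74, the invariant chain that guards the groove until loading, gave 84.4 against 1.38 (5.93). Ciita, the coactivator that switches the class II genes on, gave 0.654 against 0.0451 (3.86). The loading chaperones were higher by less, with H2-DMb1 at 5.72 against 0.573 (3.32) and H2-DMa at 1.87 against 0.286 (2.71), as were their modulators H2-Oa at 0.333 against 0.0682 (2.29) and H2-Ob at 0.182 against 0.0538 (1.76). Over the settings the median of this list ran from 2.29 to 5.71.

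MHC class I and the immunoproteasome, which cuts peptides for it, had a median of 1.31 with 8 of 14 members at least 2-fold higher and none lower. Heavy chains H2-K1 and H2-D1 gave 37.4 against 10.1 (1.89) and 16.5 against 4.94 (1.74). Nlrc5, the class I coactivator, gave 0.748 against 0.130 (2.53), the peptide pump Tap1 0.612 against 0.163 (1.91), and the immunoproteasome subunits Psmb8 and Psmb9 2.56 against 0.689 (1.89) and 2.07 against 0.620 (1.74). The light chain B2m gave 41.5 against 23.01 (0.85). The 13 subunits of the constitutive proteasome listed beside it were all within 2-fold, from -0.45 to 0.07, with a median of -0.09 that ran from -0.51 to 0.00 over the settings.

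Promoters of the class II list are shown because its members were higher together. The 50 bases below come from RefSeq (GRCm38.p6), lie upstream of the start and are given on the strand of the gene; capitals mark GATTGG, the core of the Y box of class II promoters, which holds CCAAT inverted.

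H2-Aa: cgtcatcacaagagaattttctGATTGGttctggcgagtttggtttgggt
H2-Eb1: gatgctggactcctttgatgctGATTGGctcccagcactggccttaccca
H2-DMb1: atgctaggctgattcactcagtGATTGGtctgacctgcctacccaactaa

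They lie at chr17:34287845-34287894 on the minus strand, and chr17:34305785-34305834 and chr17:34153107-34153156 on the plus strand, with the first capital 49, 60 and 62 bases before the start. The search covered the 250 bases upstream on both strands. GATTGG was present in 7 of the 7 class II genes with an entry and in 16.6% of 27025 promoters.

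Of 20 genes of disease-associated microglia, which gather where there is damage, 19 were at least 2-fold higher, with a median of 2.48. Trem2, the lipid-sensing receptor, gave 39.9 against 5.30 (2.91), and its adaptor Tyrobp (DAP12) 53.6 against 6.95 (2.95). Gpnmb, a glycoprotein of lysosome-laden macrophages, gave 7.30 against 0.182 (5.32), the cystatin Cst7 8.02 against 0.356 (4.49) and the integrin Itgax (CD11c) 7.42 against 0.505 (3.88). Apoe, the main lipid carrier of the central nervous system, gave 328 against 163, a difference of 1.01. Lpl, lipoprotein lipase, gave 1.60 through the probe used and -0.86 to 1.88 through its others, and Igf1, a growth factor, 3.34 and -0.66 to 1.89. Of 15 measured genes of Trem2 signalling and the uptake of dying cells 10 were at least 2-fold higher and 0 lower. Downstream of Trem2, the kinase Syk gave 0.837 against 0.183 (2.19), Plcg2, a phospholipase, 3.69 against 1.35 (1.45) and Inpp5d (SHIP1), which opposes the chain, 2.78 against 0.652 (2.09). Of the receptors and bridges that take up dying cells, Axl gave 27.4 against 10.4 (1.41), Pros1 16.7 against 4.49 (1.90), Mfge8 20.02 against 9.42 (1.09) and Mertk 1.39 against 0.734 (0.92).

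Fc receptors and C-type lectins had a median of 2.57, with 10 of 13 at least 2-fold higher. Fcgr4, an activating IgG receptor, gave 2.67 against 0.0738 (5.18), the inhibitory receptor Fcgr2b 4.23 against 0.278 (3.93) and the high-affinity receptor Fcgr1 1.82 against 0.305 (2.57). Their shared signalling chain Fcer1g gave 28.2 against 4.35 (2.70). Clec7a (dectin-1), which binds beta-glucan, gave 29.9 against 1.48 (4.33), Clec4d 0.914 against 0.0312 (4.87) and Clec4n (dectin-2) 0.539 against 0.0464 (3.54). Receptors that activate and the receptor that inhibits were thus higher together on the transgenic array.

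Genes of resting microglia did not move as one. Of 14 homeostatic genes 6 were at least 2-fold higher and 2 lower, with a median of 0.71. Cx3cr1, the fractalkine receptor, gave 22.3 against 6.16 (1.86), Fcrls 1.09 against 0.163 (2.74) and the purine receptor P2ry13 1.39 against 0.424 (1.71). P2ry12, the ADP receptor by which processes find injury, gave 0.943 against 1.11 (-0.23), Tmem119 2.93 against 1.75 (0.74) and the transcription factor Sall1 0.649 against 0.570 (0.19). Siglech, a sialic acid receptor, gave 11.7 against 35.7 (-1.62), with -1.68 to -0.25 through other probes. Olfml3 gave -1.73 through a probe that holds one of the runs and gave -0.11 to 1.68 through its others, so its direction turns with the probe.

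The growth factor receptor on which microglia depend, Csf1r, gave 48.4 against 16.9 (1.52), with 0.25 through another probe. Of 13 genes of the myeloid growth factor axis and its transcription factors 11 were at least 2-fold higher, with a median of 1.87. Csf2rb, the common beta chain of the GM-CSF receptor, gave 4.06 against 0.199 (4.35; -0.33 through another probe). Runx1, Irf8 and Irf5, transcription factors of myeloid cells, gave 1.36 against 0.160 (3.09), 5.43 against 1.01 (2.42) and 1.13 against 0.257 (2.14). Spi1 (PU.1), the master regulator of the lineage, was above background on the transgenic array alone, at 0.0507, and at least 2.75-fold higher.

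Markers of macrophages that live at the borders of the cord or come from blood were mixed. Of 18 listed genes 7 were at least 2-fold higher, 2 more were higher by a bound, and none was lower; the summed relative signal was 82.8 against 25.4. Chil3 (Ym1), a chitinase-like protein, gave 1.92 against 0.378 (2.34), Stab1, a scavenger receptor, 1.54 against 0.502 (1.61), and Msr1, another scavenger receptor, was at least 21.0-fold higher. The defining markers of resident border macrophages, Mrc1 and Cd163, gave 0.524 against 0.299 (0.81) and 0.213 against 0.205 (0.05). Ccr2, which defines inflammatory monocytes, was not well above background on either cord array, and neither was Ccr1.

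Granulocyte and lymphocyte genes had no common direction. Of 12 neutrophil and granulocyte genes 1 was at least 2-fold higher and 1 lower, with 1 more lower by a bound. Their median was 0.42, with 8 of 11 measured members above 0, while their summed relative signal was 36.6 against 46.3, most of it from Csf3r at 25.2 against 38.1 (-0.60); the calprotectin subunits S100a8 and S100a9 gave 1.92 against 1.44 (0.42) and 7.11 against 4.75 (0.58). Of 18 lymphocyte genes 3 were higher, 2 more higher by a bound and 2 lower, with 6 of 11 measured members above 0 and a summed signal of 8.47 against 24.1, and Cd8a, Cd79a and Gzmb were not well above background on either array. Cd79b, a B cell receptor chain, gave 0.460 against 0.0991 (2.21) and Cd2 of T cells 0.109 against 0.0427 (1.35), and Ms4a1 (CD20) was at least 2.69-fold higher. Cd4 gave 0.375 against 1.31 (-1.801). The part of these cell types in the microglial and macrophage values was not tested.

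Complement tags debris and synapses for removal. Of 18 members 11 were at least 2-fold higher, none was 2-fold lower, and the median was 1.62. The 3 chains of C1q gave 47.5 against 4.51 (3.40) for C1qa, 27.9 against 3.07 (3.19) for C1qb and 58.5 against 8.11 (2.85) for C1qc. C4b gave 64.9 against 12.3 (2.40), C3, on which all pathways converge, 60.5 against 17.2 (1.82), and Cfb of the alternative pathway 0.185 against 0.0375 (2.30). The receptors for the split products were far apart as well, C3ar1 at 1.34 against 0.0762 (4.13) and C5ar1 at 0.370 against 0.0603 (2.62). Cd55, which breaks down the convertase on cell surfaces, gave 0.365 against 0.727 (-0.996).

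Chemokines of the CC family, which draw monocytes and lymphocytes, had a median of 2.46, and 10 of 14 were at least 2-fold higher. Ccl8 gave 8.38 against 0.0822 (6.67), Ccl2, the main ligand of Ccr2, 5.63 against 0.156 (5.17), Ccl7 0.843 against 0.0425 (4.31) and Ccl12 2.65 against 0.255 (3.38). Ccl11 (eotaxin) gave 0.852 against 0.0824 (3.37) and Ccl5 (RANTES) 1.804 against 0.248 (2.86). Ccl4 and Ccl3, which microglia make, were closer together, with Ccl4 at 1.12 against 0.461 (1.29) and Ccl3 at 0.568 against 0.388 (0.55). These ligands were measured beside a receptor, Ccr2, that was not well above background on either array.

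The CXC and CX3C chemokines split, with 4 of 8 at least 2-fold higher and the other 4 below 0; their median of 0.62 ran from -0.25 to 1.49 over the settings and so has no settled sign. Cxcl10, which interferon induces, gave 2.82 against 0.371 (2.92), Cxcl1, a neutrophil attractant, 0.743 against 0.0426 (4.12), and Cxcl16 2.47 against 0.268 (3.21). Cxcl13, which draws B cells, was above background on the transgenic array alone and at least 6.02-fold higher. The neuronal and homeostatic ligands gave 12.4 against 14.7 (-0.24) for Cx3cl1 (fractalkine) and 1.49 against 2.86 (-0.94; 0.34 through another probe) for Cxcl12. Among receptors Cxcr4, that of Cxcl12, gave 0.435 against 0.0454 (3.26), and 6 of 8 measured receptors were at least 2-fold higher.

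Interferon-stimulated genes, which answer viral infection and cytosolic nucleic acid, had a median of 1.12, with 15 of 20 at least 2-fold higher and none lower. On the spike-in scale the median was 0.70, under 2-fold. Ifi44 gave 0.319 against 0.0418 (2.93), the antiviral GTPases Mx1 and Mx2 0.160 against 0.0313 (2.35) and 0.553 against 0.160 (1.79), and Oas1a, which makes the second messenger of RNase L, 2.20 against 0.482 (2.19). The transcription factor Irf7 gave 4.36 against 1.002 (2.12) and Irf9 2.80 against 1.29 (1.12). Ifit1 and Ifit3, which bind foreign RNA, gave 0.405 against 0.225 (0.85) and 2.31 against 2.08 (0.16).

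The GTPases that interferon gamma induces against intracellular pathogens were higher by less, with 4 of 10 at least 2-fold higher and a median of 0.89. Their promoters are shown because all 8 with an entry carry the core of the element read by interferon factors; capitals mark GAAA, any 2 bases and GAAA, or its reverse complement.

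Gbp2: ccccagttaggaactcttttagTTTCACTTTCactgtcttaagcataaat
Gbp7: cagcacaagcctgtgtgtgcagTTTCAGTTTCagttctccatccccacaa
Irgm2: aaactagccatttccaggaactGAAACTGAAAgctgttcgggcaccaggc

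They lie on the plus strand of GRCm38.p6 at chr3:142620582-142620631, chr3:142530261-142530310 and chr11:58214891-58214940. Gbp7 gave 0.243 against 0.0853 (1.51), Gbp2 1.41 against 0.697 (1.01) and Irgm2 1.35 against 0.669 (1.01), while Igtp gave 1.75 against 1 (0.81) and Gbp4 0.0770 against 0.0942 (-0.29). This element was present in 8 of the 8 GTPase genes and 7 of the 14 interferon-stimulated genes with an entry, and in 3.46% of all promoters. Of the 9 interferon-stimulated genes at least 2-fold higher with an entry, 4 held it.

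The interleukin-1 system, which starts sterile inflammation, had a median of 1.77, with 10 of 13 at least 2-fold higher. The ligands Il1b and Il33 gave 0.180 against 0.0284 (2.67) and 7.48 against 2.42 (1.63), and Il1a was at least 2.86-fold higher. The brakes of the system were higher too, with the receptor antagonist Il1rn at 0.552 against 0.0199 (4.79) and Il18bp, which traps interleukin-18, at 0.561 against 0.119 (2.24). Il1rl1, the receptor of Il33, was at least 11.8-fold higher. Of the inflammasome, the adaptor Pycard gave 3.03 against 0.890 (1.77), Casp1 1.58 against 0.739 (1.09), Casp4 2.19 against 0.184 (3.57) and the pore former Gsdmd 0.843 against 0.214 (1.98). The sensor Nlrp3 was measured in wild-type cord only, at 0.0621, and was at least 2.42-fold lower in transgenic cord.

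Among Toll-like receptors, which sense microbes and released cell contents, 8 of 13 listed genes were at least 2-fold higher and 1 lower. The surface receptors Tlr2, Tlr1 and Tlr6, which act as pairs, gave 2.74 against 0.458 (2.58), 0.446 against 0.0679 (2.72) and 0.256 against 0.0352 (2.86), and the coreceptor Cd14 3.73 against 0.617 (2.59). The endosomal sensor Tlr7 gave 1.60 against 0.208 (2.94), with 0.53 through another probe, and Tlr13 3.71 against 0.670 (2.47). Tlr4, the endotoxin receptor, gave 1.23 against 0.982 (0.32). Tlr3 gave 0.0527 against 0.181 (-1.78) and 0.28 through another probe.

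The interleukin-6 family signals through Stat3, whose feedback inhibitor Socs3 gave 9.03 against 0.417 (4.44), the largest difference of the measured members. Il6 itself was at least 19.5-fold higher, at 0.359. Osm (oncostatin M) gave 0.259 against 0.0347 (2.90) and its receptor Osmr 4.77 against 0.834 (2.52), while the shared chain Il6st gave 3.47 against 3.13 (0.14). Stat3 gave 12.8 against 5.04 (1.35), and Lif was not well above background on either array. Of 11 measured members 7 were at least 2-fold higher, with a median of 1.23.

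Tumour necrosis factor did not follow. Tnf gave 0.0814 against 0.136 (-0.74), while its receptor Tnfrsf1a gave 5.31 against 2.31 (1.20) and Tnfrsf12a, the receptor of TWEAK, 8.58 against 2.91 (1.56). Tnfaip3 (A20), which switches NF-kB off, gave 1.12 against 0.189 (2.56), and Nfkb2 0.806 against 0.314 (1.36). Tnfsf11 (RANKL), which drives osteoclast formation, was at least 24.6-fold higher. Of 13 measured genes 5 passed 2-fold, all higher, with a median of 0.81.

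**Figure D3:**
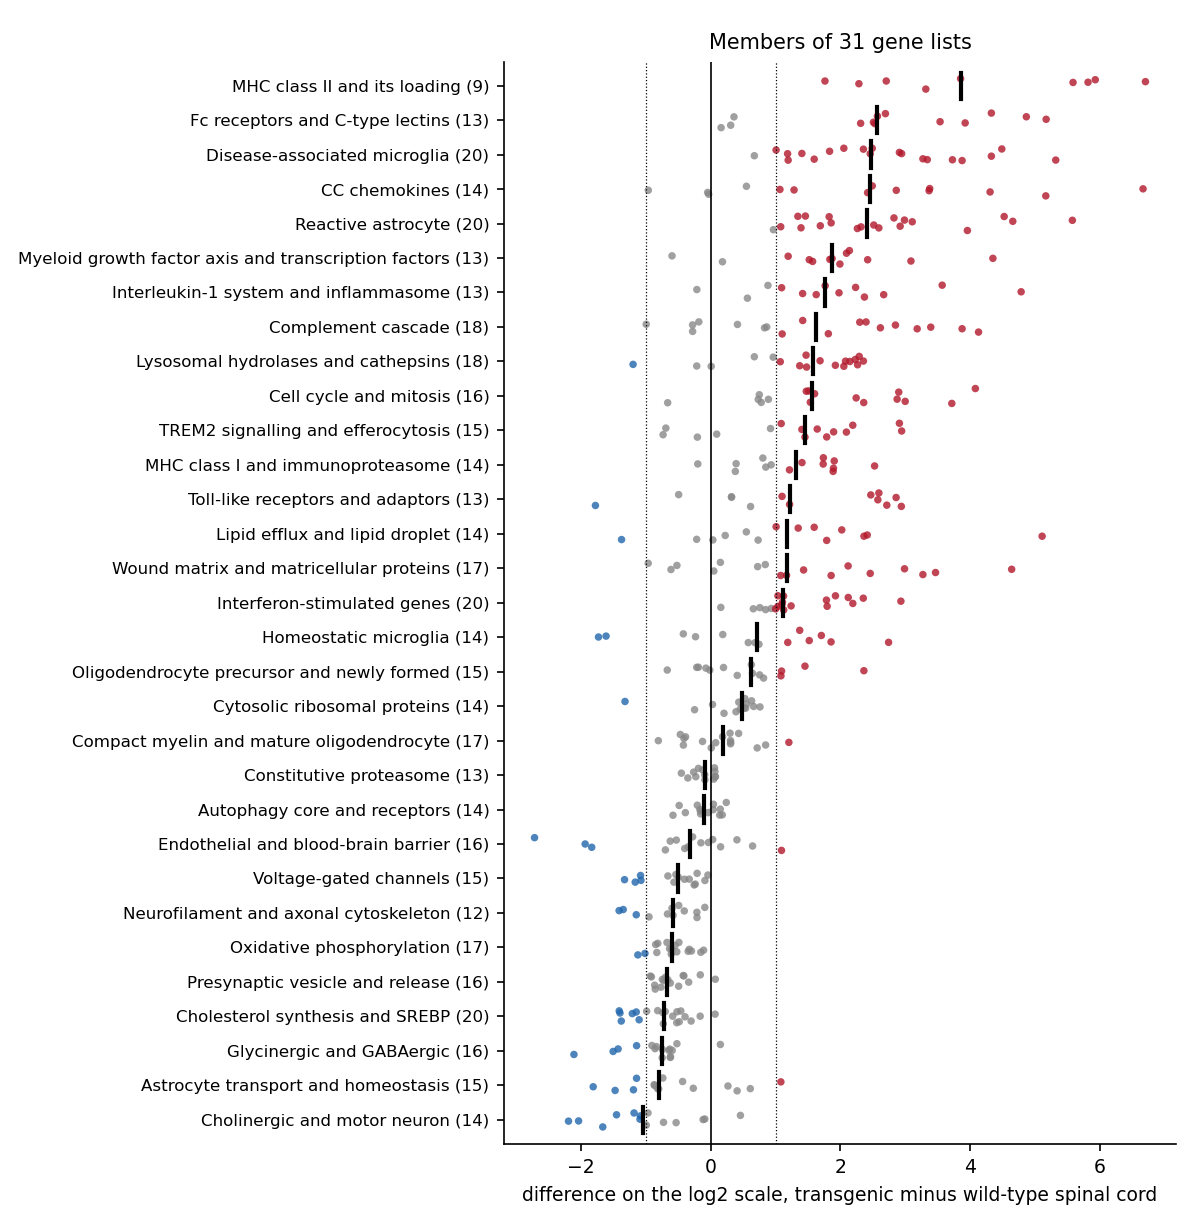
Log2 difference, transgenic minus wild type, of each measured member (points) of 31 gene lists, with the list median as a bar and the number of members above background on both arrays in brackets; red points are at least 2-fold higher and blue points at least 2-fold lower. Medians run from 3.86 for MHC class II to -1.04 for cholinergic neurons, and the proteasome, autophagy and presynaptic lists have no member past 2-fold.

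Lysosomal enzymes, which digest what microglia take up, had a median of 1.58, with 13 of 18 at least 2-fold higher and 1 lower. Cathepsins Ctss and Ctsd gave 146 against 33.0 (2.15) and 143 against 34.5 (2.05), Ctsz 34.1 against 6.66 (2.36) and Ctsl 45.7 against 12.04 (1.92), while Ctsb gave 108 against 67.7 (0.67). Naglu and Hexa, which degrade heparan sulfate and gangliosides, gave 11.5 against 2.73 (2.08) and 14.2 against 4.41 (1.69). The promoter of Naglu is shown because it holds the CLEAR element read by Tfeb, GTCACGTG, in capitals.

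Naglu: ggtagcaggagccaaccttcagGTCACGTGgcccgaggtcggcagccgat

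It lies at chr11:101069997-101070046 on the plus strand of GRCm38.p6. GTCACGTG was present in 5 of 14 hydrolase genes with an entry and in 2.11% of all promoters. Tfeb itself gave 0.621 against 1.17 (-0.91; 0.35 to 0.41 through other probes), and its relatives Tfe3 and Mitf 6.54 against 4.86 (0.43) and 3.72 against 2.78 (0.42; 0.39 to 1.63 through other probes). Membrane proteins of the lysosome and its proton pump differed less as a list, with a median of 0.32 (-0.10 on the spike-in scale), yet Acp5, a phosphatase of osteoclasts and macrophages, gave 14.8 against 0.453 (5.03) and Cd68 33.5 against 2.53 (3.73; 2.49 to 3.81 through other probes). Lamp1 gave 105 against 88.4 (0.25). Autophagy genes were all within 2-fold, from -0.58 to 0.24, including the receptor Sqstm1 (p62) at 49.7 against 42.1 (0.24); their median of -0.10 ran from -0.51 to 0.05 over the settings.

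Genes that move lipid out of cells were higher in part. Apoc2, the cofactor of lipoprotein lipase, gave 3.88 against 0.112 (5.11), Apoc1 8.50 against 2.09 (2.02) and the cholesterol pump Abca1 4.52 against 1.31 (1.79), while the pump Abcg1 gave 4.60 against 4.49 (0.03). Ch25h, which makes 25-hydroxycholesterol, a suppressor of sterol synthesis, gave 1.91 against 0.370 (2.36). Plin2, the coat protein of lipid droplets, gave 5.54 against 2.17 (1.35), with -0.04 through another probe, and Plin4 13.1 against 2.45 (2.42). The sterol sensor Nr1h3 (LXR alpha) gave 0.854 against 0.731 (0.22). In all 8 of 14 were at least 2-fold higher and 1 lower.

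The opposite order held for sterol synthesis. Of 20 measured genes 6 were at least 2-fold lower and none higher, beside 6.42% of all genes, and the median was -0.72; 19 of the 20 lay below 0. Hmgcs1, the synthase of an early step, gave 20.1 against 30.2 (-0.59). Idi1 gave 2.37 against 5.49 (-1.21), Fdps 5.47 against 12.1 (-1.15), squalene synthase Fdft1 4.75 against 12.4 (-1.38) and Nsdhl 0.327 against 0.870 (-1.41), while a late enzyme, Dhcr7, gave 0.753 against 0.991 (-0.40). Srebf2, the transcription factor of the pathway, gave 1.58 against 4.16 (-1.40) but -0.01 through another probe. None of the 6 lower genes had a probe with one of the runs that marked the lowest genes. The promoters of Hmgcs1 and Idi1 of the same pathway are shown, with CCAAT or its inverse ATTGG in capitals, the site of NF-Y.

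Hmgcs1: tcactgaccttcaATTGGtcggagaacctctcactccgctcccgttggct
Idi1: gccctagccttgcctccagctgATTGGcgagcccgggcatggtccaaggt

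They lie on chromosome 13 of GRCm38.p6, both on the plus strand, at chr13:119690101-119690150 and chr13:8885539-8885588. CCAAT was present in all 14 sterol genes with an entry, 3 of them at least 2-fold lower, and in 37.5% of all promoters. It was also present in 12 of 15 cell cycle genes with an entry, and 6 of those 12 were at least 2-fold higher. The sterol element core TCACNCCAC was present in 1 of 14, Hmgcs1, and in 1.22% of all promoters.

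In the list of reactive astrocytes 19 of 20 measured genes were at least 2-fold higher (median 2.42), 3 more higher by a bound, and none lower. Serpina3n, a protease inhibitor, gave 32.0 against 1.26 (4.66), Timp1, which blocks metalloproteinases, 37.1 against 0.776 (5.58), and Lcn2, an iron-siderophore binder, 7.75 against 0.336 (4.53). Gfap and Vim, the filament proteins by which reactive astrocytes are stained, differed less, at 60.2 against 28.5 (1.08) and 35.5 against 9.999 (1.83). Cd109 gave 1.63 against 0.189 (3.11), the pentraxin Ptx3 0.429 against 0.0275 (3.96), and Srgn, a proteoglycan of granules, 16.6 against 2.09 (2.99; -0.52 to 0.75 through other probes).

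Genes of astrocyte transport went the other way. Of 15 members 4 were at least 2-fold lower and 1 higher, and the median was -0.80. The potassium channel Kcnj10 (Kir4.1) gave 36.8 against 64.1 (-0.80) and the growth factor receptor Fgfr3 8.52 against 18.8 (-1.14). Gjb6 (connexin 30) gave 6.14 against 14.0 (-1.19). Gja1 (connexin 43) gave 0.586 against 2.06 (-1.81), and its other probes measured on both arrays gave -0.43 to -0.41. A further probe of Gja1, measured in transgenic cord alone, gave a bound of 1.03. The glutamate transporters Slc1a2 and Slc1a3 were within 2-fold, at 5.11 against 6.15 (-0.27) and 3.34 against 2.77 (0.27), as were Aqp4 at 20.8 against 15.6 (0.41) and Aldh1l1 at 14.2 against 9.31 (0.61), while the transcription factor Sox9 gave 1.40 against 0.661 (1.08).

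Secreted defence genes and serpins gave a median of 1.38, with 9 of 16 at least 2-fold higher. Lyz2, lysozyme of macrophages, gave 152 against 18.5 (3.03; 4.27 through another probe), and Serpina3i was at least 20.8-fold higher. Serpina3 genes are near-identical copies, so their probes may share targets. The 1 lower member, Serpinb1a, at 1.91 against 4.30 (-1.17), has a probe with one of the runs. Matrix genes of wounds had a median of 1.17: Postn (periostin) gave 1.39 against 0.0558 (4.64), Tgfbi 15.1 against 1.90 (2.99), Spp1 (osteopontin) 71.2 against 12.9 (2.46) and the hyaluronan receptor Cd44 1.94 against 0.536 (1.86; 3.54 through another probe). Of 13 collagens 4 were at least 2-fold higher, with Col3a1 at 2.59 against 0.785 (1.72) and Col1a2 at 5.90 against 6.62 (-0.17). Of 12 measured genes of metalloproteinases and their inhibitors 6 were at least 2-fold higher, and 2 more were higher by a bound, Mmp3 at least 22.2-fold and Mmp12 at least 10.1-fold. Adam8 gave 3.42 against 0.377 (3.18), but Mmp9 gave 0.0584 against 0.185 (-1.67).

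Genes of dividing cells were higher. Of 16 measured genes of the cell cycle 11 were at least 2-fold higher, with a median of 1.57, and 2 more were higher by a bound. Top2a, topoisomerase of dividing cells, gave 0.625 against 0.0368 (4.08), the proliferation antigen Mki67 0.890 against 0.111 (3.001) and Ccnb1, a cyclin of mitosis, 0.326 against 0.0247 (3.72), and its kinase Cdk1 was at least 7.85-fold higher. Rrm2, which makes deoxynucleotides, gave 1.78 against 0.242 (2.88), and Ccnd1, a cyclin of entry into the cycle, 16.4 against 3.19 (2.36). Pcna gave 11.7 against 6.97 (0.75). Of 13 p53 targets and Gadd45 genes 6 were at least 2-fold higher and 1 lower. Cdkn1a (p21), which arrests the cycle, gave 7.97 against 1.73 (2.20), and Gadd45b gave 3.49 against 0.959 (1.86), while Mdm2 gave 10.2 against 6.58 (0.64).

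Stress genes were uneven. Of the integrated stress response, the secreted factor Gdf15 gave 3.77 against 0.0458 (6.36), Atf3, a factor of injured neurons and glia, 2.48 against 0.194 (3.67), Trib3 1.69 against 0.142 (3.57) and Chac1, which degrades glutathione, 7.33 against 1.87 (1.97), and Fgf21 was at least 22.1-fold higher. Its drivers Atf4 and Ddit3 (CHOP) gave 67.1 against 38.7 (0.80) and 2.20 against 1.19 (0.88), and the chaperone Hspa5 (BiP) of the endoplasmic reticulum 29.6 against 29.4 (0.01). Thus 4 of 16 measured genes were past 2-fold, with a list median of 0.48. Of 13 heat shock genes Hspa1a, at 12.6 against 4.12 (1.61), and Hspb1 (HSP27), at 82.3 against 31.3 (1.39), were the 2 past 2-fold, and Hspa8 gave 49.4 against 78.9 (-0.68). Heme oxygenase Hmox1 gave 8.93 against 0.876 (3.35) and Nqo1 1.20 against 0.549 (1.13), but the other 12 NRF2 targets and metallothioneins were within 2-fold. Of 15 measured genes of iron and heme handling 4 were at least 2-fold higher and 0 lower; the ferroxidase Cp gave 4.22 against 1.31 (1.69), while the ferritin chain Fth1 gave 184 against 234 (-0.35) and Ftl1 141 against 83.3 (0.76; 1.97 through another probe).

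AP-1 and immediate early genes, which cells switch on within minutes of a stimulus, had a median of 1.13, with 9 of 17 at least 2-fold higher. Junb gave 7.88 against 1.61 (2.29), Fos 4.62 against 1.56 (1.57), Jun 10.9 against 4.38 (1.32) and Egr1 2.86 against 1.53 (0.91), and Fosl1 was at least 8.99-fold higher. Arc, which neurons make on activity, gave 1.25 against 3.14 (-1.32), the 1 lower member.

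Of 17 genes of the neurotrophin, GDNF and IGF systems 5 were at least 2-fold higher and 2 lower. They included Gdnf, a survival factor of motor neurons, at 0.367 against 0.0396 (3.21), Igfbp2 at 17.5 against 2.23 (2.97) and Igfbp3 at 11.2 against 3.87 (1.54), while Bdnf gave 0.357 against 0.289 (0.30). Of 16 genes of TGF-beta and activin signalling 6 were higher and 1 lower. Tgfb1 and its receptors Tgfbr1 and Tgfbr2 gave 0.592 against 0.172 (1.78), 5.63 against 1.73 (1.70) and 5.54 against 2.21 (1.32). Smad7, their feedback inhibitor, gave 0.529 against 1.74 (-1.72) and 0.48 through another probe. Of 16 genes of axon injury 5 were at least 2-fold higher and 0 lower. Sprr1a, a marker of regenerating sensory neurons that keratinocytes also make, gave 2.23 against 0.0687 (5.02) and Tubb6, a beta-tubulin, 7.19 against 1.097 (2.71), but Gap43 gave 17.4 against 16.8 (0.05) and Gal 2.27 against 2.16 (0.07).

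Myelin genes were mostly within 2-fold. Of 17 genes of compact myelin and mature oligodendrocytes 1 was at least 2-fold higher, the tight junction protein Cldn11 at 60.5 against 26.2 (1.21), and none was lower; the median was 0.18, and -0.23 on the spike-in scale. Mbp gave 53.8 against 43.7 (0.30), Mag 40.2 against 35.4 (0.18), Cnp 40.6 against 32.8 (0.31) and the transcription factor Myrf 1.19 against 1.30 (-0.13). Aspa, which breaks down N-acetylaspartate for myelin lipids, had the lowest difference, 3.16 against 5.54 (-0.81). The enzymes of myelin lipids were alike, with Ugt8a at 6.36 against 5.11 (0.32) and Fa2h at 9.04 against 9.23 (-0.03) and a median of -0.11; Scd1 was the 1 of 14 past 2-fold, at 5.84 against 12.1 (-1.05).

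Genes of oligodendrocyte precursors and newly formed oligodendrocytes had a higher median, 0.63, with 4 of 15 at least 2-fold higher and none lower. Gpr17, a receptor of cells that have just left the precursor state, gave 14.8 against 5.42 (1.45) in cord and 5.21 against 4.80 in brainstem/cerebellum. Pdgfra and Cspg4 (NG2), the markers of precursors, gave 3.54 against 1.67 (1.08; 0.07 through another probe) and 1.78 against 0.346 (2.36; 0.35 through another probe). Both are also made by cells of the vessel wall and meninges. Of the lineage factors, Sox10 gave 11.9 against 7.62 (0.64) and Olig2 0.851 against 1.35 (-0.67).

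Cholinergic and motor neuron genes had the lowest list median of measured members, -1.04, with 7 of 14 at least 2-fold lower and none higher. With bounded genes at their bound it was -0.99, and that of skeletal muscle genes was lower, at -1.01. Chat, which makes acetylcholine, gave 1.08 against 1.18 (-0.12), through a probe that holds one of the runs. Its vesicular transporter Slc18a3 (VAChT), encoded in the same locus, gave 4.05 against 7.92 (-0.97) and the choline transporter Slc5a7 2.37 against 4.72 (-0.99), both just short of 2-fold. Ache, which ends transmission, gave 0.834 against 1.89 (-1.18). The peptides Calca and Calcb gave 3.97 against 10.9 (-1.45) and 0.183 against 0.838 (-2.19). Chodl, a marker of fast motor neurons, gave 1.07 against 4.39 (-2.04), with 0.25 through another probe. The other lower members were Esrrg and Esrrb, nuclear receptors that mark subtypes of motor neuron, at 1.90 against 4.04 (-1.09) and 0.540 against 1.15 (-1.09), and Mmp9, a protease of fast motor neurons and of neutrophils, at 0.0584 against 0.185 (-1.67).

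Inhibitory neurons showed a like order. Of 16 glycinergic and GABAergic genes 4 were at least 2-fold lower and none higher, with a median of -0.75. Slc6a5 (GlyT2), the glycine transporter of inhibitory endings, gave 3.06 against 8.25 (-1.43), and Slc6a11 (GAT3), a GABA transporter of astrocytes, 0.561 against 2.42 (-2.11). Pvalb, a calcium buffer of fast neurons and of muscle, gave 14.9 against 33.0 (-1.14). The synthesis enzymes Gad1 and Gad2 gave 4.31 against 6.195 (-0.52) and 2.35 against 3.66 (-0.64), and Slc32a1, which loads both transmitters, 42.6 against 65.5 (-0.62).

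Of 16 presynaptic genes 15 lay below 0 and none was past 2-fold, with a median of -0.68. On the spike-in scale the median was -1.097 and 10 of the 16 were at least 2-fold lower. Snap25 gave 40.1 against 65.1 (-0.70), Syp 15.8 against 24.9 (-0.66) and Syn1 10.01 against 18.2 (-0.87). Of 12 axonal cytoskeleton genes the 3 neurofilament chains were those past 2-fold, with Nefl at 72.4 against 161 (-1.15), Nefm at 38.9 against 99.3 (-1.35) and Nefh at 39.9 against 106 (-1.41). These subunits set the calibre of large myelinated axons. Voltage-gated channels were lower in 4 of 15, among them the nodal sodium channel Scn8a at 2.02 against 4.53 (-1.17), its partner Scn4b at 10.6 against 22.4 (-1.08), and the potassium channel Kcnc1 at 1.86 against 4.68 (-1.33). Glutamate receptors were closer, with a median of -0.41; Slc17a6 (VGLUT2) gave 4.76 against 7.57 (-0.67).

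Of 16 measured peptide genes of the dorsal horn 1 was at least 2-fold higher and 2 lower, with a median of -0.39. Pdyn gave 2.77 against 2.71 (0.04), Penk 24.1 against 29.5 (-0.29) and Tac1 (substance P) 6.02 against 8.25 (-0.45). The 1 higher member was Nmu (neuromedin U), at 148 against 21.9 (2.76) in cord and 30.6 against 5.90 (2.37) in brainstem/cerebellum. Of 12 genes of the node of Ranvier 2 were at least 2-fold higher and 1 lower, with a median of -0.31. Nrcam, a cell adhesion molecule of the node, gave 33.3 against 11.3 (1.56; -0.08 to 0.69 through other probes). Cntnap1 (Caspr) gave 2.23 against 3.55 (-0.67) and Ank3 26.1 against 33.98 (-0.38), while Nfasc gave 36.1 against 16.2 (1.16) with -1.71 to 1.13 through other probes, so its direction turns with the probe.

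All 17 genes of oxidative phosphorylation lay below 0, with a median of -0.60 and 2 past 2-fold, Cox6c at 33.6 against 73.2 (-1.12) and Atp5b at 59.5 against 120.2 (-1.01), the latter through a probe with one of the runs. Ndufs1 and Cox4i1 gave 18.1 against 25.5 (-0.49) and 124 against 138 (-0.15). Of 18 genes of glycolysis and lactate transport 2 were higher and 1 lower. Hk2, the hexokinase of activated immune cells and muscle, gave 1.09 against 0.226 (2.27), while Hk1, that of neurons, gave 21.6 against 62.9 (-1.54; -0.31 through another probe), and the lactate exporter Slc16a3 (MCT4) gave 1.70 against 0.597 (1.51). Of 14 clock genes 1 was at least 2-fold higher and 3 lower; Dbp gave 9.72 against 21.3 (-1.13), Ciart 0.108 against 0.310 (-1.51) and Per1 10.5 against 6.92 (0.60). Cytosolic ribosomal protein genes had a median of 0.48, 0.07 on the spike-in scale.

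Of 16 measured genes of endothelium and the blood-brain barrier 1 was at least 2-fold higher and 3 lower. Kdr (VEGFR2), the growth factor receptor of endothelium, gave 5.14 against 18.4 (-1.84) in cord and 5.68 against 14.1 (-1.32) in brainstem/cerebellum, and Gkn3, of arterial endothelium, 0.282 against 1.08 (-1.94) and 0.325 against 0.952 (-1.55). The tight junction gene Cldn5 gave 2.92 against 1.87 (0.65), the glucose transporter Slc2a1 14.9 against 16.5 (-0.15) and Vwf 4.04 against 1.90 (1.09). Slc7a5, the large neutral amino acid transporter, gave 1.39 against 9.12 (-2.72) through a probe with one of the runs. Of 12 measured genes of pericytes and endothelial adhesion 3 were at least 2-fold higher, 1 more was lower by a bound, and the median of 0.10 ran from -0.31 to 0.15 over the settings. Of molecules by which leukocytes leave blood, Icam1 gave 1.25 against 0.298 (2.07), Vcam1 4.46 against 1.86 (1.27) and Icam2 0.850 against 0.992 (-0.22). Among pericyte genes Pdgfrb gave 0.723 against 0.600 (0.27) and Rgs5 0.806 against 1.21 (-0.58).

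Genes of nerve root and muscle were higher on the wild-type array in part. Prx (periaxin) of peripheral myelin gave 0.922 against 3.09 (-1.74). Of 10 measured Schwann cell genes 3 were nevertheless at least 2-fold higher and 2 lower, and the 11 listed had a summed relative signal of 105 against 124. Egr2, their myelin factor that macrophages also use, gave 1.72 against 0.405 (2.09). Of 12 skeletal muscle genes 5 were lower on the transgenic array, 1 more lower by a bound, and none higher (Trim63, among the 5, through the probe shown above), with a summed signal of 17.4 against 41.2. Acta1, skeletal actin, gave 0.151 against 0.454 (-1.59), Tnnc2, a troponin, 0.565 against 1.45 (-1.36), and Myh4, a fast myosin, 0.231 against 0.334 (-0.53). Of 6 measured genes of dorsal root ganglion neurons 1 was higher and 1 lower, beside 8.46% and 6.42% of all genes. Over all 12 listed, dim ones included, the summed signal was 6.91 against 12.5. Among the 12, Scn10a and Trpv1 were not well above background on either array. Meningeal and fibroblast genes summed to 169 against 219.5, with 3 higher and 3 lower of 14. The hemoglobin gene Hba-a1 of blood gave 197 against 226 (-0.20). The part of this tissue in the lower neuronal values was not tested.

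**Figure D4:**
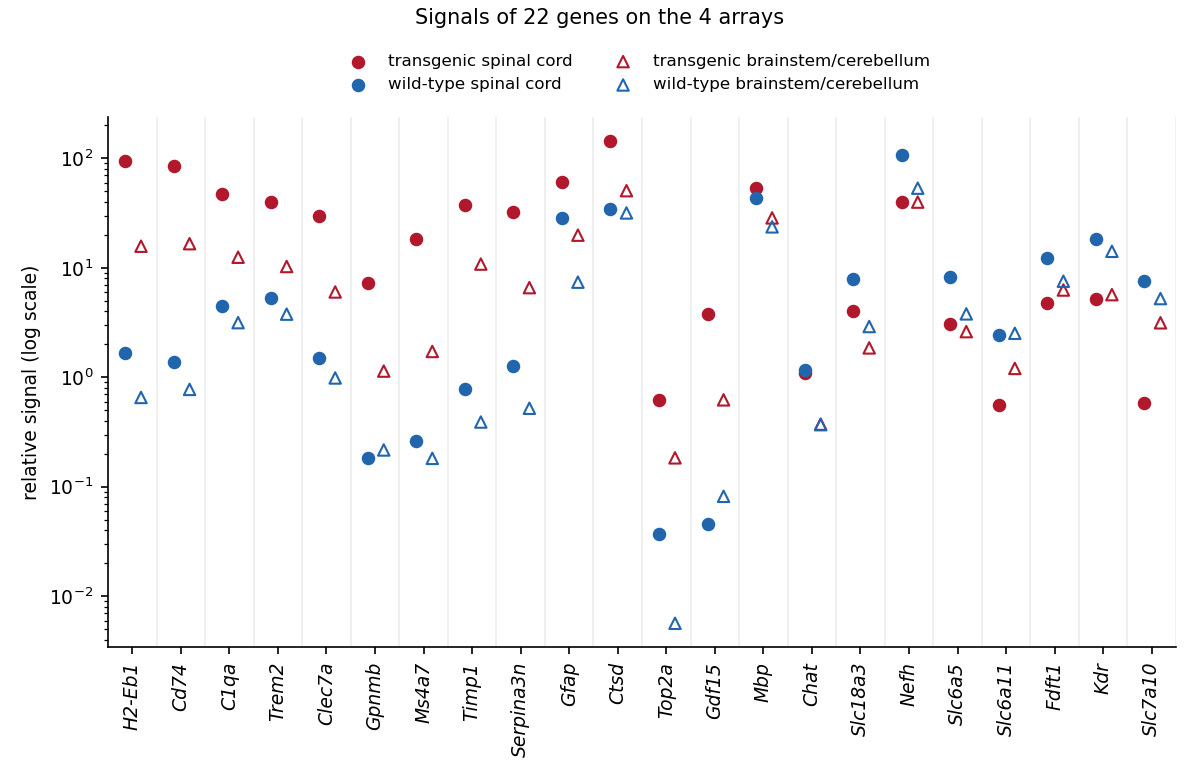
Relative signal (log scale) of 22 genes on the 4 arrays: filled circles are spinal cord, open triangles brainstem/cerebellum, red transgenic and blue wild type, with 1 array per mark and no error bar. The class II, microglial, macrophage and astrocyte genes on the left are higher on both transgenic arrays. Slc7a10, on the right, is lowest in transgenic cord. The wild-type brainstem/cerebellum value of Top2a is not well above background.

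Brainstem/cerebellum of the same genotypes, compared on arrays that share a slide, differed less: 447 of 16898 genes (2.65%) were at least 2-fold higher and 53 (0.314%) lower, and the SD of differences was 0.41, against 0.84 in cord. Of 16439 genes above background on all 4 arrays 1237 were higher in cord, and 355 of these were higher in brainstem/cerebellum too, which is 28.7% of the former and 82.6% of the 430 higher in brainstem/cerebellum. Of 1066 lower in cord 23 were lower in both (2.16%, and 52.3% of the 44 lower in brainstem/cerebellum). With 1 array in each group, no test of the difference between tissues was possible.

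Levels on the cord arrays can be set beside wild-type brainstem/cerebellum, as a description of genes chosen for their difference in cord. For the 1237 higher genes the median of transgenic cord minus wild-type brainstem/cerebellum was 1.84 and of wild-type cord minus the same array 0.27. For the 1066 lower genes the corresponding medians were -0.66 and 0.77. A level at least 4-fold above each other array was seen for 416 genes in transgenic cord, 126 in wild-type cord, 117 in transgenic brainstem/cerebellum and 52 in wild-type brainstem/cerebellum.

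Side by side, the class II genes gave 5.67 for H2-Aa, 4.42 for Cd74 and 4.59 for H2-Eb1 in brainstem/cerebellum, beside 6.71, 5.93 and 5.82 in cord. Lcn2 was farther apart in brainstem/cerebellum, 5.76 beside 4.53, as was C3, 2.65 beside 1.82, and Gfap, 1.43 beside 1.08. Their lists did not share this order. The median of reactive astrocyte genes was 1.45 in brainstem/cerebellum and 2.42 in cord, and that of complement genes 1.51 and 1.62. Cord was farther apart for Gpnmb, 2.39 beside 5.32, Trem2, 1.45 beside 2.91, and the macrophage gene Ms4a7, 3.24 beside 6.12. The median of disease-associated microglia genes was 1.07 in brainstem/cerebellum and 2.48 in cord. That of homeostatic microglia genes was 0.52 and 0.71, and that of border-associated and monocyte-derived macrophage genes 0.92 (14 genes) and 0.84 (15 genes). Over the 13 macrophage genes measured in both tissues, cord minus brainstem/cerebellum had a median of 0.21. The median of interferon-stimulated genes was 1.41 in brainstem/cerebellum (19 genes) and 1.12 in cord (20 genes). Over the 19 measured in both tissues, cord minus brainstem/cerebellum had a median of 0.07, so the order of the list medians does not hold gene by gene. Cholinergic genes gave -0.43 and -1.04, sterol synthesis -0.42 and -0.72, and astrocyte transport 0.02 and -0.80. Astrocyte transport was thus near 0 in brainstem/cerebellum.

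**Figure D5:**
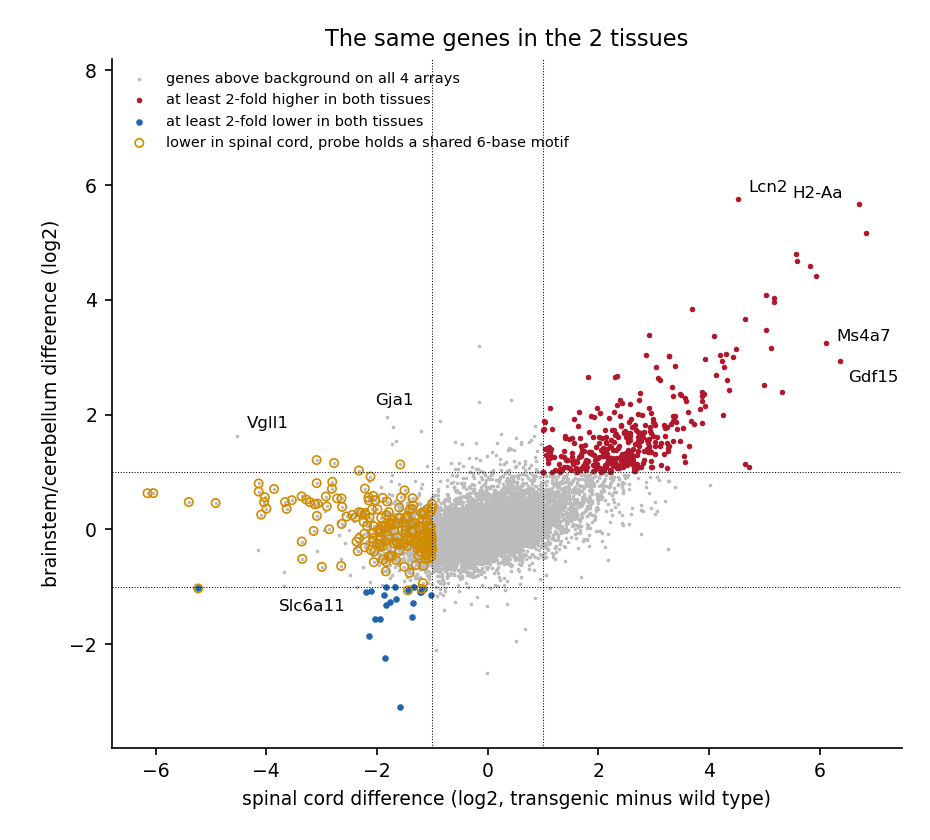
Log2 difference, transgenic minus wild type, in spinal cord (x axis) and brainstem/cerebellum (y axis) of 16439 genes above background on all 4 arrays; dotted lines mark 2-fold, red points are higher and blue points lower in both tissues, and gold rings are genes lower in cord whose probe holds a shared 6-base run. The 355 red points spread to the upper right, while 201 of the 208 gold rings lie within 2-fold in brainstem/cerebellum.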

How the data were processed

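Agilent 1-colour arrays of 4 samples, 1 per group, were used, 2 of them spinal cord. The deposited values are processed intensity values that the authors extracted with Agilent Feature Extraction (version 10.7.1.1 per the file headers, 9.5.1.1 per the submitters' processing notes); probe coordinates are those of mm9 in the files. Control spots and outlier-flagged spots (63 to 134 an array) were left out, and no spot was saturated. Log2 processed signal minus the log2 75th percentile of the array was averaged over spots of a probe, and a gene was read through the probe brightest over the 4 arrays. Of 56605 probes 46192 had a gene name. A gene counted as higher or lower at 2-fold if well above background on both arrays; if measured on 1 alone, a bound was taken against the lowest signal well above background on the dim array, or the dim signal itself where that was higher. The number of arrays limits the precision.

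With 1 array a group no test was run. The text names the 25 largest differences each way among genes above the array median on at least 1 array, the 10 largest bounds each way, and, in 72 gene lists, core members and up to 8 further members with the largest difference. Some of these genes are not reported here, though list counts include them. The groups compared and the lists were chosen with earlier results of these data known. Alternatives changed scaling, background correction (normexp, offset 50), filter, probe choice and threshold; 2 of them, on probes that disagree and on probe letters, were added after seeing the data. Python 3.11.15, numpy 2.4.6, pandas 2.3.3, R 4.3.3 and limma 3.58.1 were used. Promoters came from RefSeq (GRCm38.p6), matched by symbol.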

Additional observations from a re-analysis of the deposited data

Results flagged for a closer look

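For 2 genes the 2 tissues went opposite ways through the probe used, each with 1 array per group, and the difference between tissues was not tested. Gja1, connexin 43, differed by -1.81 in spinal cord and 1.95 in brainstem/cerebellum through its brightest probe. Other probes of Gja1 gave -0.43 and -0.41 in spinal cord, and 0.50 and -0.28 in brainstem/cerebellum. A further probe, above background in transgenic cord but not in wild-type cord, gave a bound of 1.03 in spinal cord. Vgll1 differed by -4.53 in spinal cord and 1.62 in brainstem/cerebellum.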

How the results depend on the processing

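No paired analysis was possible because each group has 1 array. Of 17 alternatives, scaling on the spike-in probes gave 853 genes higher and 3068 lower in place of 1455 and 1103. After normexp background correction 587 were lower with 75th-percentile scaling, and 961 were higher and 525 lower with quantile normalization. Without a filter on dim probes 2607 were higher and 2425 lower. At 1.5-fold the counts were 2779 and 3052, and at 3-fold 715 and 299. The counts not given here lay within 1.5 times of 1455 and 1103. Of 366 named genes past 2-fold 122 fell short of it under at least 1 of 15 alternatives. The sign turned for 5: Krt14 was 0.000342 after normexp with 75th-percentile scaling, Nfasc -0.0162 as the mean of its probes, and, without the probes that hold one of the 3 6-base runs, Olfml3 was 1.68, Trim63 1.01 and Zfp280c 0.344. Of 72 list medians 19 changed sign under some setting, none of them among the 21 past 1. The causes were not tested, except that a higher or lower threshold counts fewer or more genes by construction. Signals near background limit the dim genes: in the dimmest 20% of genes 10.4% were lower, beside 3.95% in the brightest 20%.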

Other observations

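No gene name could be assigned to 4062 of the probes measured in both cord samples. Of these, 221 (5.44%) reached 2-fold higher in transgenic cord and 558 (13.7%) 2-fold lower, with a median difference of -0.09. In 5537 genes with probes at least 200 bases apart, the difference at the probe nearer the 3′ end minus that at the other had a median of -0.12 in spinal cord and -0.09 in brainstem/cerebellum. The 2 probes lay over 1 apart on the log2 scale in 12.3% of these genes in spinal cord and in 2.35% in brainstem/cerebellum.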
